A study of Mus musculus with 28 samples.

Results

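Cyp4a10, Cyp4a14, Cyp4a31 and Cyp4a32 are 4 mouse genes for cytochrome P450 enzymes that put a hydroxyl group on the last carbon of a fatty acid, the omega carbon. They were taken by name from the 54446 genes counted in every library, after Ensembl identifiers had been matched to gene symbols, and all 4 passed the filter on low counts in each of the 4 comparisons of NMN with water. The genes were picked with their levels in the liver of mice gavaged at 1340 mg/kg/d already known, so the values of that comparison are given as a description without a test.

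Polyadenylated RNA was sequenced from the liver and the kidney of male C57BL/6 mice, 8 weeks old. The methods of the study give the strain as C57BL6J. The mice had received nicotinamide mononucleotide (NMN) or sterile water by oral gavage for 7 days. NMN is a precursor from which cells make the coenzyme NAD+. One schedule used 1 gavage a day and gave 1340 mg/kg/d of NMN, with 4 NMN and 4 water libraries per organ, and the other used 2 gavages a day and gave 2680 mg/kg/d, with 3 NMN and 3 water libraries per organ. No water mouse received NMN, and each schedule had its own water mice, so dose and number of gavages cannot be told apart between the schedules, nor from other differences between the 2 sets of mice. Such differences were present, since mitochondrial genes took 9.48% and 9.71% of counted reads in NMN and water kidneys of the first schedule and 20.3% and 20.6% in those of the second.

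The libraries held between 12688324 and 33872983 reads counted on genes. In the kidney the depth went with the treatment, since all 4 NMN libraries at 1340 mg/kg/d (13174264 to 14006288 reads) were shallower than their 4 water libraries (15354270 to 15696435), and all 3 NMN libraries at 2680 mg/kg/d (22922994 to 33872983) were deeper than theirs (16358886 to 18983689). Levels are given as CPM, counts divided by the scaled library size,, and as CPM per kilobase of exon (FPKM) where genes are compared with each other. The labels number the replicates but do not describe each animal, so p-values measure the spread between these libraries.

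Omega-hydroxylation opens a side route for fatty acids. A Cyp4a enzyme in the endoplasmic reticulum, with electrons from the reductase Por, makes an omega-hydroxy fatty acid, alcohol and aldehyde dehydrogenases turn it into a dicarboxylic acid, and peroxisomes shorten that acid from its ends. Cyp4a genes are classic targets of the nuclear receptor PPAR-alpha and rise in the liver of fasted mice and of mice given fibrates. In the kidney Cyp4a enzymes work in the proximal tubule, where some of the family also hydroxylate arachidonic acid.

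The 4 genes lie next to each other on chromosome 4 in a block of 135.4 kb (GENCODE M21 annotation of GRCm38). Cyp4a14 (ENSMUSG00000028715.2) runs from 115486200 to 115496142 on the minus strand. Cyp4a10 (ENSMUSG00000066072.13, 115518264 to 115533649), Cyp4a31 (ENSMUSG00000028712.12, 115563649 to 115579015) and Cyp4a32 (ENSMUSG00000063929.6, 115600969 to 115621602) follow on the plus strand. Cyp4a10 has 13 exons and each of the others 12, and no exon of the 4 overlaps an exon of another gene. The annotated Cyp4a32 transcript has only 3 bases outside its coding sequence, so reads from untranslated ends of its RNA, which count for the other members, could not be counted for it.

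Cyp4a10, Cyp4a31 and Cyp4a32 are near-identical copies and Cyp4a14 stands apart from them. Over aligned coding bases, Cyp4a10 is 96.6% identical to Cyp4a31 (52 bases differ) and 97.2% identical to Cyp4a32 (43 bases differ), and Cyp4a31 is 96.0% identical to Cyp4a32 (61 bases differ). Cyp4a14 is 75.02% to 75.35% identical to the 3 copies. The next lines show 60 coding bases of each gene from the GENCODE M21 transcripts, bases 643 to 702 of the coding sequence (637 to 696 in Cyp4a14), chosen as a stretch in which Cyp4a14 departs from the rest, with capitals at the 30 positions that differ among the 4 genes.
Cyp4a10: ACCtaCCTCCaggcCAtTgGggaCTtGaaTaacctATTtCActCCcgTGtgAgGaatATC
Cyp4a31: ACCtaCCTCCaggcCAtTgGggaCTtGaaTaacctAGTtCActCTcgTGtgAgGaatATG
Cyp4a32: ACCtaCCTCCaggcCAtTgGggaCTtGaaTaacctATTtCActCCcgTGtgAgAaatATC
Cyp4a14: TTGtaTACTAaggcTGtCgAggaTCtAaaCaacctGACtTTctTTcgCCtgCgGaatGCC
A stretch in which the 3 copies can be told from each other is shown next, coding bases 202 to 261, with capitals at the 9 positions that differ among them.
Cyp4a10: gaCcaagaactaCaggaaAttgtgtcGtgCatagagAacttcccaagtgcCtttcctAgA
Cyp4a31: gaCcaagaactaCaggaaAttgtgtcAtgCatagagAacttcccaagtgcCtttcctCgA
Cyp4a32: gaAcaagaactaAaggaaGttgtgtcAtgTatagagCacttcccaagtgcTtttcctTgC

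This likeness bears on the counts, because a read that fits more than 1 place in the genome was not counted. Of all stretches of 75 bases in the annotated exons of a member, the share found in no other annotated gene was 100% for Cyp4a14, 87.2% for Cyp4a31, 81.6% for Cyp4a10 and 72.0% for Cyp4a32. At 150 bases it was 100%, 96.5%, 96.0% and 93.0% in the same order. The longest run of identical coding bases was 186 between Cyp4a10 and Cyp4a31, 179 between Cyp4a10 and Cyp4a32 and 211 between Cyp4a31 and Cyp4a32. The read length is not given in the sources used here. Of the 4 genes Cyp4a32 thus offered the smallest share of countable sequence, and its values are uncertain wherever the other copies are abundant.

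**Figure D1:**
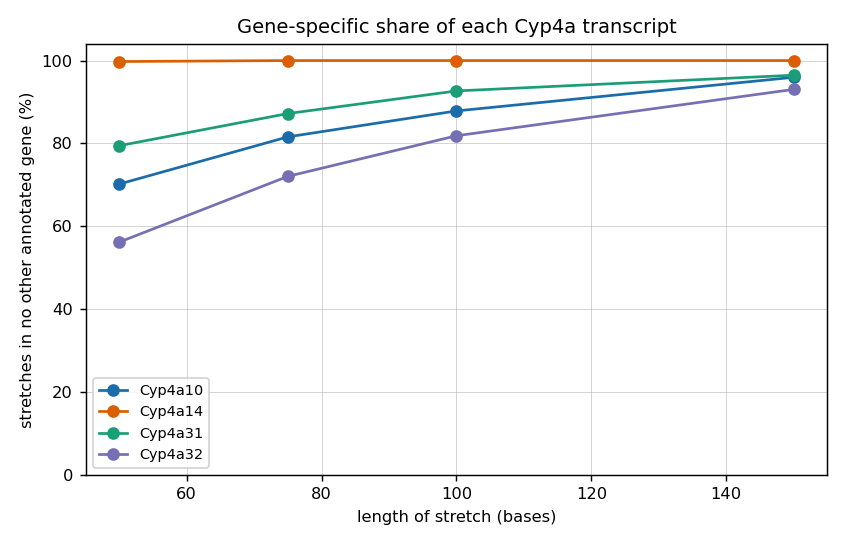
Share of stretches of 50, 75, 100 and 150 bases (x axis, bases) in the exons of each member that occur in no other annotated gene (y axis, %), 1 line per gene. Cyp4a14 is near 100% at every length, and Cyp4a32 is lowest at every length, rising from 56.2% to 93.0%.

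In livers of water mice Cyp4a10 was the most abundant member, and it varied between mice. Its level at 1340 mg/kg/d was 60.5, 139.7, 224 and 135.5 CPM in the 4 water libraries, and Cyp4a14 was at 6.96, 83.2, 150.2 and 117.9 CPM in the same libraries. Replicate 1 was lowest for both genes, and for Cyp4a14 it lay 11.95 times below the next library. Per length, Cyp4a10 stood at 66.4 ± 31.7 FPKM (SD, n = 4), Cyp4a14 at 34.4 ± 23.6 FPKM, Cyp4a32 at 6.83 ± 1.11 FPKM and Cyp4a31 at 2.29 ± 1.12 FPKM. The ranges of Cyp4a10 (28.7 to 106.3 FPKM) and Cyp4a14 (2.68 to 57.8 FPKM) overlapped, while those of Cyp4a14 and Cyp4a32 (5.51 to 8.09 FPKM) overlapped only through replicate 1, and Cyp4a32 and Cyp4a31 (1.29 to 3.89 FPKM) did not overlap. At 2680 mg/kg/d the water livers gave the same order, with 174.9 ± 58.6 FPKM (SD, n = 3) for Cyp4a10, 100.5 ± 27.8 FPKM for Cyp4a14, 7.04 ± 1.44 FPKM for Cyp4a32 and 2.61 ± 0.951 FPKM for Cyp4a31.

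The kidney of water mice held a different set. Cyp4a10 (177.8 ± 33.9 FPKM, SD, n = 4, at 1340 mg/kg/d) and Cyp4a31 (137.2 ± 5.45 FPKM) were the abundant members, Cyp4a14 was lower at 43.2 ± 28.6 FPKM, and Cyp4a32 stood at 0.461 ± 0.193 FPKM. The lowest Cyp4a10 library (136.9 FPKM) lay within the Cyp4a31 range of 132.6 to 144.2 FPKM, so these neighbours in the order overlapped. Cyp4a14 stayed below both in all 4 libraries. Cyp4a32 rested on 4, 13, 14 and 13 counts in the 4 libraries, and whether these were its own reads or misplaced reads of the abundant copies was not tested. The order was the same at 2680 mg/kg/d, with 216.9 ± 36.2 FPKM (SD, n = 3), 146.2 ± 24.4 FPKM, 63.3 ± 39.9 FPKM and 0.668 ± 0.174 FPKM for Cyp4a10, Cyp4a31, Cyp4a14 and Cyp4a32. These FPKM values were scaled within each organ and schedule, so levels set across organs need the fits described next.

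**Figure D2:**
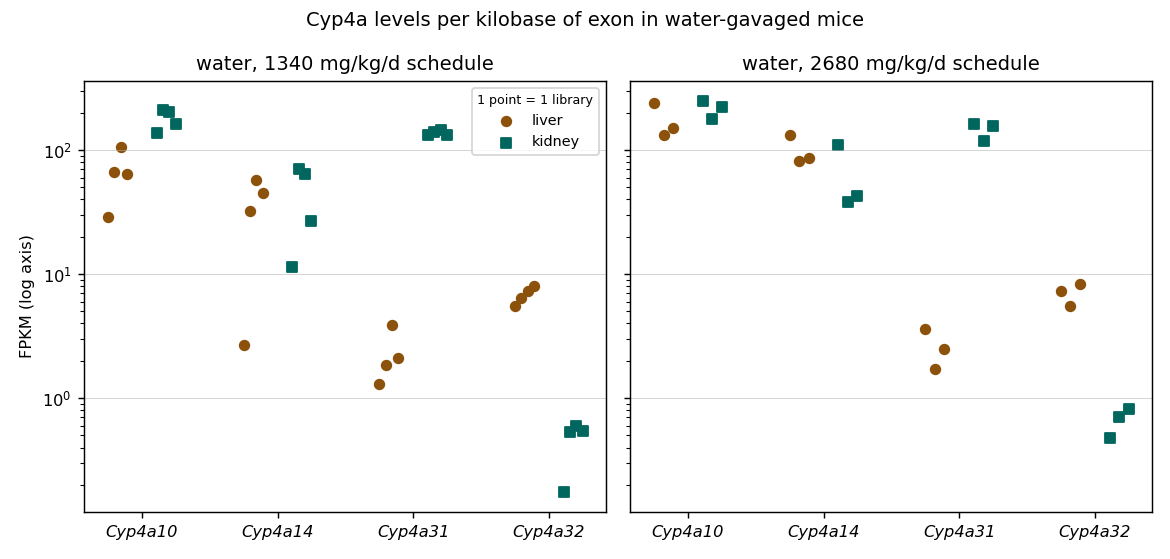
FPKM (y axis, log scale) of the 4 members (x axis) in the water libraries, 1 point per library, circles for liver and squares for kidney, with the 2 schedules side by side. Cyp4a31 lies far higher in kidney than in liver, Cyp4a32 far higher in liver, and Cyp4a10 at 1340 mg/kg/d ran from 28.7 to 106.3 FPKM in liver and from 136.9 to 208.7 FPKM in kidney.

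When liver and kidney libraries of water mice were scaled and fitted together, Cyp4a31 was higher in kidney and Cyp4a32 higher in liver in both schedules. Cyp4a31 stood at 7.91 ± 3.82 CPM in liver (SD, n = 4) and 246.5 ± 9.76 CPM in kidney at 1340 mg/kg/d, a log2 difference of -4.96 for liver minus kidney (SE 0.27, edgeR adjusted p = 3.64e-09). In the other schedule its log2 difference was -4.95 (SE 0.26, edgeR adjusted p = 3.32e-08). Cyp4a32 went the other way, with 14.5 ± 2.36 CPM in liver and 0.507 ± 0.213 CPM in kidney at 1340 mg/kg/d, a log2 difference of 4.81 (SE 0.31, edgeR adjusted p = 1.05e-08), and 4.25 (SE 0.28, edgeR adjusted p = 1.48e-07) at 2680 mg/kg/d. Of all genes tested, 66.9% passed the same threshold in either direction at 1340 mg/kg/d and 70.5% at 2680 mg/kg/d, so passing it sets no gene apart between these organs.

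Cyp4a10 and Cyp4a14 differed less between the organs. At 1340 mg/kg/d Cyp4a10 was at 193.3 ± 91.1 CPM in liver and 268.3 ± 50.6 CPM in kidney (SD, n = 4), a log2 difference of -0.47 (SE 0.32, edgeR adjusted p = 0.22), and in a fit with a replicate block it was -0.59 (edgeR adjusted p = 0.0135). Cyp4a10 pointed the other way at 2680 mg/kg/d, with 482.9 ± 162.3 CPM in liver and 331.2 ± 55.5 CPM in kidney, a log2 difference of 0.54 (SE 0.22, edgeR adjusted p = 0.043), and the organs overlapped. Cyp4a14 gave a log2 difference of 0.63 (SE 0.92, edgeR adjusted p = 0.577) at 1340 mg/kg/d and 1.52 (SE 0.48, edgeR adjusted p = 0.0318) at 2680 mg/kg/d. Without a filter on low counts neither difference at 2680 mg/kg/d passed (edgeR adjusted p = 0.153 for Cyp4a10 and 0.0964 for Cyp4a14).

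**Figure D3:**
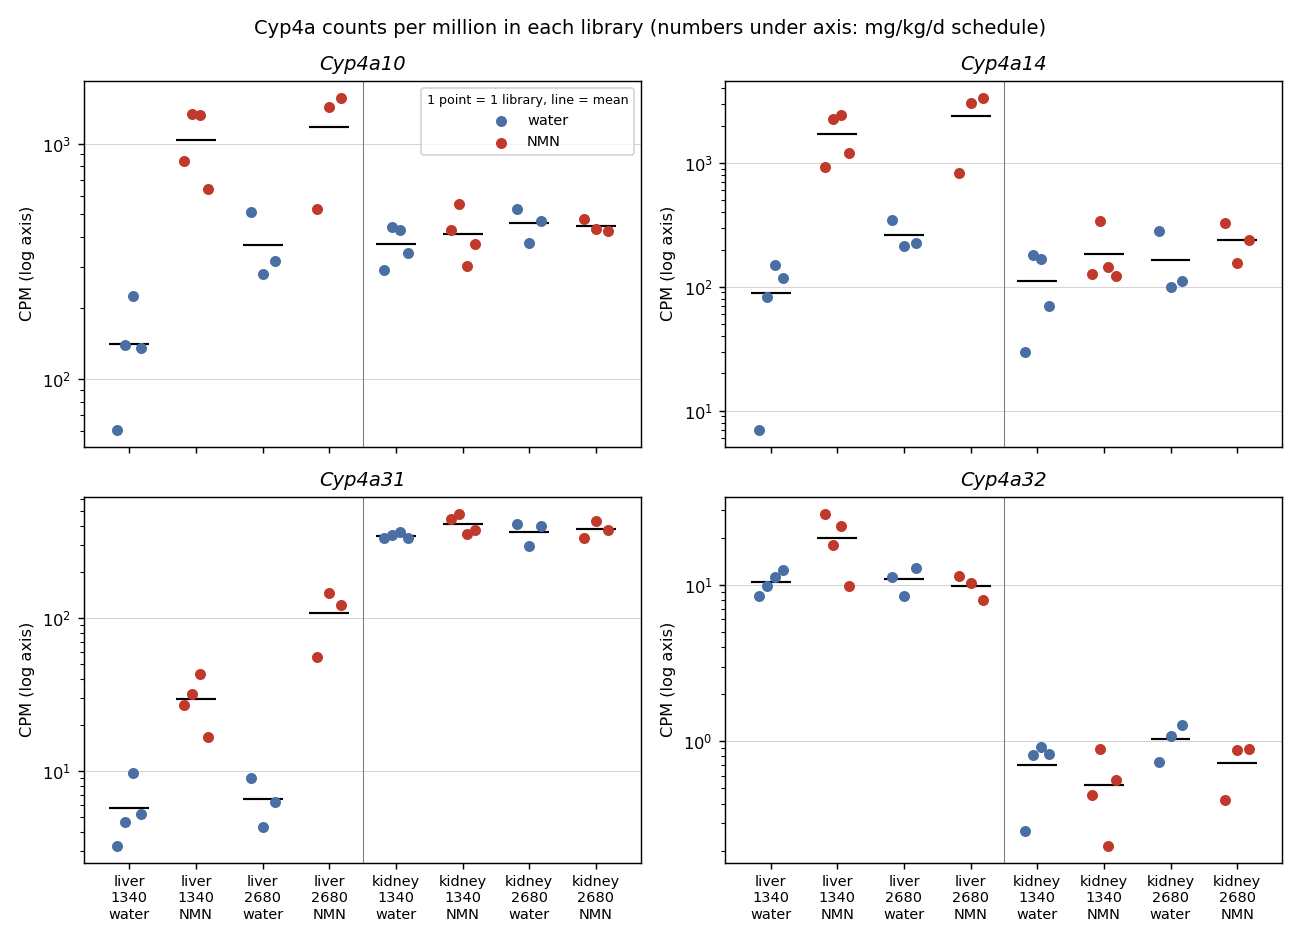
CPM (y axis, log scale) of each member in its own panel, 1 point per library and a line at the mean, for the 8 groups of organ, schedule and treatment (x axis). NMN livers lie above water livers for Cyp4a10, Cyp4a14 and Cyp4a31 in both schedules, and NMN and water kidneys overlap for all 4 members.

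In the liver at 1340 mg/kg/d, the comparison whose values chose the genes, 3 of the 4 members were higher in every NMN library than in every water library. Cyp4a10 was at 845.4, 1337, 1326 and 643.7 CPM in the 4 NMN libraries, against the 60.5 to 224 CPM of the water libraries above. Cyp4a14 was at 928.6, 2271, 2438 and 1209 CPM, so that the lowest NMN library was still 6.18 times the highest water library. Cyp4a31 went from 3.24, 4.67, 9.76 and 5.27 CPM with water to 27.2, 31.9, 42.8 and 16.8 CPM with NMN. Replicate 4 was the lowest NMN library for Cyp4a10 and Cyp4a31 and replicate 1 for Cyp4a14. Cyp4a32 was at 8.47, 9.86, 11.2 and 12.4 CPM with water and at 28.5, 17.9, 23.7 and 9.88 CPM with NMN, and these groups overlapped through replicate 4. On the log2 scale the fitted changes were 4.26 for Cyp4a14 (SE 0.93), 2.89 for Cyp4a10 (SE 0.42), 2.37 for Cyp4a31 (SE 0.36) and 0.93 for Cyp4a32 (SE 0.28). Groups that did not overlap, with NMN higher, were found for 1.78% of the 12449 genes tested, and nothing is read from the members' count beside it, since they were chosen on these libraries.

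The liver at 2680 mg/kg/d was not the comparison that chose the genes, and there Cyp4a31 and Cyp4a14 rose. Earlier results of these data were known when the genes were chosen, so its p-values may not be independent of the choice. Cyp4a31 was at 9.07, 4.32 and 6.28 CPM in the 3 water libraries and at 55.4, 145.1 and 121.5 CPM in the 3 NMN libraries. It rose by 4.03 on the log2 scale (SE 0.43, edgeR adjusted p = 0.00363), and the lowest NMN library was 6.11 times the highest water library. Cyp4a14 was at 344.6, 213.2 and 226.2 CPM with water and at 834.3, 3033 and 3372 CPM with NMN, and it rose by 3.21 (SE 0.60, edgeR adjusted p = 0.0421). Cyp4a10 was at 509.7, 279.2 and 317.4 CPM with water and at 525.3, 1425 and 1567 CPM with NMN. Its groups did not overlap, but the lowest NMN library was close to the highest water library and its log2 difference of 1.67 did not pass (SE 0.46, edgeR adjusted p = 0.0894). Cyp4a32 was at 11.2, 8.43 and 12.8 CPM with water and at 11.3, 10.2 and 8.04 CPM with NMN, a log2 difference of -0.13 (SE 0.23, edgeR adjusted p = 0.767).

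At the threshold used for this comparison (adjusted p under 0.01 and a change of more than 2-fold) 1 of the 4 members was higher, Cyp4a31, and at an adjusted p under 0.05 there were 2, Cyp4a31 and Cyp4a14. Over all 12477 genes tested 0.353% passed the first threshold as higher and 3.05% the second, and NMN was above water without overlap for 13.8%, among them 3 members. An exact permutation test of 3 against 3 libraries cannot go below p = 0.1, two-sided, and gave that value for Cyp4a10, Cyp4a14 and Cyp4a31 and p = 0.6 for Cyp4a32. Replicate 1 was the lowest NMN library for Cyp4a10, Cyp4a14 and Cyp4a31. Without it Cyp4a10 passed as well, with a log2 change of 2.01 (edgeR adjusted p = 0.00233), Cyp4a14 was at 3.61 (edgeR adjusted p = 2.96e-05) and Cyp4a31 at 4.34 (edgeR adjusted p = 4.8e-05). Leaving out any other single library ended the call of Cyp4a14, with edgeR adjusted p = 0.0867, 0.109 and 0.103 without water replicates 1, 2 and 3, and 0.102 and 0.122 without NMN replicates 2 and 3. Cyp4a31 stayed under 0.05 whichever library was left out, but missed 0.01 without water replicate 2 (0.0118), water replicate 3 (0.0291) or NMN replicate 3 (0.0167). DESeq2 gave adjusted p = 0.00988 for Cyp4a10 and 1.75e-07 for Cyp4a14.

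The members did not keep the same proportions in the 2 liver schedules. Cyp4a31 had a log2 change that was 1.67 larger at 2680 than at 1340 mg/kg/d (SE 0.62), while those of Cyp4a10, Cyp4a14 and Cyp4a32 were smaller by 1.22 (SE 0.67), 1.04 (SE 1.12) and 1.06 (SE 0.39). These differences hold the libraries that chose the genes and were not tested. For Cyp4a10 the water livers also differed between schedules, at 140.0 ± 66.9 CPM (SD, n = 4) in the 1340 mg/kg/d schedule and 368.8 ± 123.5 CPM (SD, n = 3) in the other, while its NMN livers were at 1038 ± 349 CPM (SD, n = 4) and 1172 ± 565 CPM (SD, n = 3). For Cyp4a31 it was the NMN livers that lay apart, at 29.7 ± 10.8 CPM (SD, n = 4) at 1340 mg/kg/d and 107.3 ± 46.5 CPM (SD, n = 3) at 2680 mg/kg/d, against 5.73 ± 2.81 and 6.55 ± 2.39 CPM in the water livers.

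Within a library, Cyp4a14 took over from Cyp4a10 as the larger part of the members' counts in NMN livers. Cyp4a14 made up 31.3 ± 15.4% of the 4 genes' counts with water and 60.2 ± 6.37% with NMN at 1340 mg/kg/d (SD, n = 4), and 40.6 ± 1.45% and 63.6 ± 4.43% at 2680 mg/kg/d (SD, n = 3). Cyp4a10 went from 60.5 ± 11.3% to 37.9 ± 5.62% and from 56.7 ± 1.52% to 32.9 ± 3.43%. Cyp4a31 went from 1.00 ± 0.134% to 3.14 ± 0.744% at 2680 mg/kg/d. As part of all counted reads the 4 genes together made up 0.0246% with water and 0.282% with NMN at 1340 mg/kg/d, and 0.0614% and 0.388% at 2680 mg/kg/d. In kidneys Cyp4a10 and Cyp4a31 shared most of the counts in every group, with Cyp4a14 between 12.5% and 22.3% on average.

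**Figure D4:**
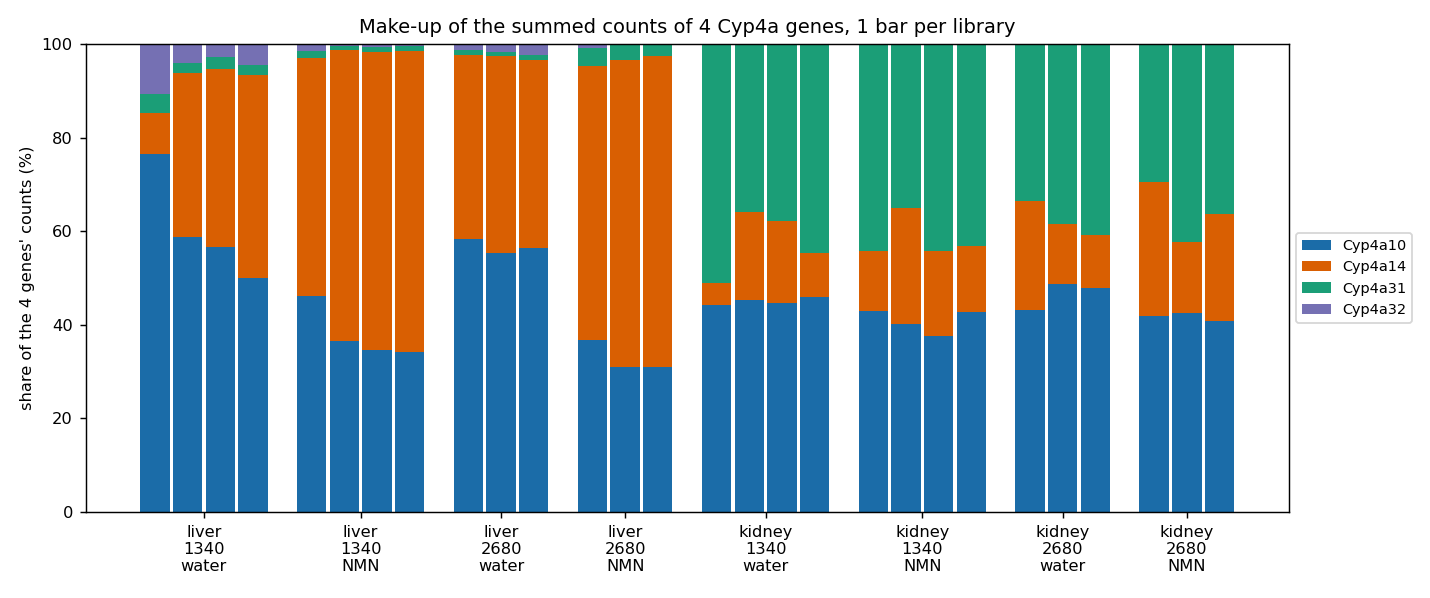
Share of each member in the summed counts of the 4 genes (y axis, %), 1 stacked bar per library, grouped by organ, schedule and treatment. Cyp4a14 holds the larger part in NMN livers, Cyp4a10 in water livers, and Cyp4a31 appears as a large part in kidneys only.

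Because the 3 copies share sequence, their counts were also summed into 1 row before the fit. The sum changed by 2.80 on the log2 scale (SE 0.40) in the liver at 1340 mg/kg/d, given without a test. The sum differed by 1.74 at 2680 mg/kg/d (SE 0.45, edgeR adjusted p = 0.074), and Cyp4a10 held most of those counts. In the kidney the summed copies gave 0.20 at 1340 mg/kg/d (edgeR adjusted p = 0.682) and -0.00044 at 2680 mg/kg/d (SE 0.12, edgeR adjusted p = 1). The NMN effect on the sum at 2680 mg/kg/d differed between liver and kidney by 1.73 (SE 0.46, edgeR adjusted p = 0.0637), which did not pass. Between the organs of water mice the sum differed by -1.26 at 1340 mg/kg/d, liver minus kidney (edgeR adjusted p = 0.00238), and by -0.24 at 2680 mg/kg/d (edgeR adjusted p = 0.328).

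In the kidney none of the 4 members passed the threshold with NMN in either schedule. Cyp4a10 was at 288.7, 440.1, 427.0 and 343.8 CPM with water and 429.1, 552.1, 300.9 and 374.3 CPM with NMN at 1340 mg/kg/d, a log2 difference of 0.14 (SE 0.19, edgeR adjusted p = 0.871). Cyp4a14 was at 29.7, 181.8, 168.0 and 69.5 CPM with water and 126.7, 343.2, 145.3 and 121.6 CPM with NMN, a log2 difference of 0.71 (SE 0.67, edgeR adjusted p = 0.814). Both genes spread over wide ranges that overlapped between the groups. Cyp4a31 was at 332.7, 348.5, 361.8 and 334.2 CPM with water and 441.5, 480.1, 354.7 and 377.7 CPM with NMN, a log2 difference of 0.26 (SE 0.10, edgeR adjusted p = 0.432, unadjusted p = 0.0183 from edgeR), and only NMN replicate 3 lay within the water range. Cyp4a32 rested on 6, 12, 3 and 8 counts with NMN and gave -0.42 (SE 0.54, edgeR adjusted p = 0.867). Of the 14972 genes tested 0.12% passed in either direction. Of the members 1, Cyp4a31, had an unadjusted p under 0.05, as had 8.94% of all genes, and DESeq2 called none. Exact permutation tests, two-sided, gave p = 0.571, 0.286, 0.0571 and 0.486 for Cyp4a10, Cyp4a14, Cyp4a31 and Cyp4a32, where 4 against 4 libraries allow no p under 0.029.

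Kidney differences at 2680 mg/kg/d were close to 0 for Cyp4a10 and Cyp4a31. Cyp4a10 was at 528.4, 376.6 and 467.1 CPM with water and 475.5, 433.0 and 423.5 CPM with NMN (log2 difference -0.04, SE 0.12, edgeR adjusted p = 0.928). Cyp4a31 was at 408.0, 296.3 and 395.9 CPM with water and 334.2, 429.8 and 376.6 CPM with NMN (0.05, SE 0.13, edgeR adjusted p = 0.921). The NMN values lay inside the water range for Cyp4a10, and all but 1 did so for Cyp4a31. Cyp4a14 was at 284.3, 99.1 and 110.7 CPM with water and 328.4, 154.7 and 238.2 CPM with NMN (0.54, SE 0.57, edgeR adjusted p = 0.789), and Cyp4a32, with 10 to 30 counts per library, gave -0.46 (SE 0.39, edgeR adjusted p = 0.715). Of the 15245 genes tested 0.4% passed, and no member had an unadjusted p under 0.05, which 11.1% of all genes had, or was called by DESeq2. Exact permutation tests gave p = 1, 0.3, 0.7 and 0.3 for Cyp4a10, Cyp4a14, Cyp4a31 and Cyp4a32. The NMN effects of the kidney did not pass a test of their difference between schedules either, with log2 values of -0.19, -0.17, -0.22 and -0.05 in the same order (SE 0.26, 0.92, 0.17 and 0.73, edgeR adjusted p = 0.999 for each). That test called 0.00625% of 15989 genes.

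The difference between the organs was tested directly at 2680 mg/kg/d, a schedule whose comparisons did not choose the genes, although earlier results of these data were known. The NMN effect on Cyp4a31 was larger in liver than in kidney by 3.97 on the log2 scale (SE 0.46, edgeR adjusted p = 0.00119). For Cyp4a10 the difference was 1.70 (SE 0.47, edgeR adjusted p = 0.0767), for Cyp4a14 2.64 (SE 0.79, edgeR adjusted p = 0.11) and for Cyp4a32 0.31 (SE 0.42, edgeR adjusted p = 0.735). So 1 of 4 members passed as higher in liver, against 1.05% of the 15811 genes tested with edgeR. DESeq2 also called Cyp4a10 (adjusted p = 0.00916) and Cyp4a14 (adjusted p = 0.0214). In either direction DESeq2 called 1232 genes in all, where edgeR called 419. Cyp4a31 started from a low level in water livers, and its mean in NMN livers of 107.3 ± 46.5 CPM (SD, n = 3) stayed under its mean of 366.8 ± 61.3 CPM in water kidneys, each scaled within its own organ.

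The other Cyp4a genes lie on the same chromosome, and none of them was called higher with NMN in the liver at 2680 mg/kg/d or in either kidney comparison, by edgeR, by DESeq2 or at an unadjusted p under 0.05. Cyp4a12a, the Cyp4a gene that male mice express under androgens and growth hormone, was at 125.5, 117.3 and 128.2 CPM in water livers and 42.0, 46.1 and 84.2 CPM in NMN livers at 2680 mg/kg/d. It fell by 1.11 on the log2 scale (SE 0.24, edgeR adjusted p = 0.0245), and the call was lost without water replicate 1, 2 or 3 (edgeR adjusted p = 0.0796, 0.0822 and 0.0732). In the kidney at 1340 mg/kg/d it was at 110.3, 49.3, 71.6 and 60.4 CPM with water and 19.5, 13.7, 22.8 and 32.8 CPM with NMN. These groups did not overlap, yet the log2 difference of -1.71 did not pass over all genes (SE 0.35, edgeR adjusted p = 0.177, against 0.000913 by DESeq2). Cyp4a12a differed by -0.18 (SE 0.40) in the liver at 1340 mg/kg/d and in the kidney at 2680 mg/kg/d by -0.58 (edgeR adjusted p = 0.756). Cyp4a12b, whose coding sequence is 98.5% identical to Cyp4a12a, gave -0.02 (edgeR adjusted p = 0.958) in the liver at 2680 mg/kg/d and -0.58 (edgeR adjusted p = 0.304) and -0.88 (edgeR adjusted p = 0.667) in the kidney at 1340 and 2680 mg/kg/d. Its kidney groups at 1340 mg/kg/d, 11.96 to 21.96 CPM with water and 8.49 to 11.5 CPM with NMN, did not overlap either, as was so for 2.83% of all genes with NMN lower. Exact permutation tests, two-sided, gave Cyp4a12a and Cyp4a12b there p = 0.029, the smallest that 4 against 4 libraries allow. Cyp4a29 had at most 1 count in any library and Cyp4a30b had 0 in all 28, where 3 counts would be the limit that a count of 0 allows. Of 7 tested Cyp4 genes of other subfamilies, Cyp4f14, a leukotriene omega-hydroxylase, fell in the liver at 2680 mg/kg/d from 393.5 ± 9.81 to 166.2 ± 23.8 CPM (SD, n = 3, log2 change -1.24, SE 0.14, edgeR adjusted p = 0.00124). None of the 7 rose by edgeR or DESeq2. At an adjusted p under 0.05 edgeR and DESeq2 each called 1 lower, beside 4.03% and 5.86% of all genes. At an unadjusted p under 0.05 1 was higher and 2 were lower, beside 12.3% of all genes in each direction.

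Genes of the steps around omega-hydroxylation were read in the liver at 2680 mg/kg/d, where 3.05% of all genes passed as higher and 4.03% as lower at an adjusted p under 0.05. Among 4 electron donors of P450 enzymes, Por rose from 193.6 ± 76.9 to 434.8 ± 101.8 CPM (SD, n = 3, log2 change 1.17, SE 0.28, edgeR adjusted p = 0.0446), and Cyb5r3, the cytochrome b5 reductase, fell by 0.78 (edgeR adjusted p = 0.013). Among 8 dehydrogenases that turn omega-hydroxy acids into dicarboxylic acids, Adh7 rose by 1.31 (SE 0.26, edgeR adjusted p = 0.016), and Aldh3a2, the fatty aldehyde dehydrogenase, differed by 0.74 (edgeR adjusted p = 0.132). None of the 8 fell by edgeR, while 2 were higher and 2 lower at an unadjusted p under 0.05, beside 12.3% of all genes each way, and DESeq2 called 2 higher and 1 lower, beside 5.76% and 5.86%. The median of the 8 was -0.22, beside 0.00 over all genes tested.

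Of 19 genes for the peroxisomal shortening of dicarboxylic acids 2 rose, and the median of the 19 was 0.28. Crat, the carnitine acetyltransferase, rose by 1.57 (SE 0.26, edgeR adjusted p = 0.00978), and Ehhadh, the bifunctional enzyme of peroxisomal beta-oxidation, rose from 220.2 ± 35.5 to 522.9 ± 193.3 CPM (log2 change 1.25, SE 0.27, edgeR adjusted p = 0.0295). Leaving out 1 library at a time moved the edgeR adjusted p of Ehhadh between 0.000496 and 0.116 and that of Por between 0.018 and 0.137, while Crat stayed between 0.00245 and 0.0452.

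The receptor itself did not pass. Ppara was at 24.6 ± 12.1 CPM with water and 27.6 ± 9.69 CPM with NMN in the liver at 2680 mg/kg/d (log2 difference 0.16, edgeR adjusted p = 0.828). Of 12 receptors and partners of the PPAR family only Ncor1, a corepressor, passed, and it rose by 0.90 (edgeR adjusted p = 0.0312). At an unadjusted p under 0.05 4 of the 12 were higher and 0 lower, and DESeq2 called 2 higher and 0 lower. Of 23 tested PPAR-alpha targets outside peroxisomes none was called by edgeR in either direction, while 4 were at that unadjusted p as higher and 1 as lower, and DESeq2 called 1 each way. Of all genes 12.3% were higher and 12.3% lower at that unadjusted p, and DESeq2 called 5.76% higher and 5.86% lower. Their median was 0.39. Angptl4, an inhibitor of lipoprotein lipase, had the smallest p with a log2 difference of 2.56 (SE 0.76, edgeR adjusted p = 0.123), followed by Fabp1, the liver fatty acid binding protein, at -0.78 (edgeR adjusted p = 0.135), and Acot1, a cytosolic acyl-CoA thioesterase, at 1.55 (edgeR adjusted p = 0.158).

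The same lists are given for the liver at 1340 mg/kg/d by their levels, since they were written with that comparison known. Groups did not overlap, with NMN higher, for 4 of 23 PPAR-alpha targets outside peroxisomes, 6 of 19 peroxisomal genes, 1 of 8 dehydrogenases and 1 of 12 receptors and partners, where 1.78% of all genes did not overlap in that direction. Vnn1, a pantetheinase, was at 15.6 ± 5.61 CPM with water and 44.8 ± 11.2 CPM with NMN (SD, n = 4), Ehhadh at 170.5 ± 13.3 and 329.1 ± 106.3 CPM, and Aldh3a2 at 150.8 ± 21.1 and 279.3 ± 57.0 CPM. Por was at 325.2 ± 139.4 and 453.9 ± 69.7 CPM, and its groups overlapped. Ppara differed by 0.24 on the log2 scale, also with overlap.

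In the kidney no gene of these pathway lists passed at either schedule. NMN was above water without overlap at 2680 mg/kg/d for 5 of 19 peroxisomal genes and 7 of 23 PPAR-alpha targets outside peroxisomes, where 8.47% of all genes were. The 3 peroxisomal genes with the smallest p were Hsd17b4 (log2 difference 0.40, edgeR adjusted p = 0.0544), Acaa1b (0.59, edgeR adjusted p = 0.0736) and Acot3 (0.69, edgeR adjusted p = 0.093), and Ppara was at 0.54 (SE 0.16, edgeR adjusted p = 0.231). In edgeR 5 peroxisomal genes and 7 of the targets had an unadjusted p under 0.05, all higher with NMN, and DESeq2 called 3 and 0 of them, and 1 dehydrogenase, beside 5.23% of all genes higher at the unadjusted p and 0.63% by DESeq2. At 1340 mg/kg/d 2 peroxisomal genes and 5 targets had an unadjusted p under 0.05 as higher and 1 target as lower, and DESeq2 called 1 target higher. Of all genes 4.34% were higher and 4.6% lower at the unadjusted p, and DESeq2 called 0.605% higher.

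Markers of other cells were read beside the members, and in bulk RNA fewer cells of a type and less RNA per cell cannot be told apart. The 5 hepatocyte markers summed to 138040 to 153836 CPM in water livers and 104177 to 116405 CPM in NMN livers at 2680 mg/kg/d, led by Alb, and all 5 were lower with NMN, of which 1, Ttr, passed (log2 change -0.97, edgeR adjusted p = 0.00227), as did 4.03% of all genes as lower. Of 7 pericentral hepatocyte markers 2, Glul and Oat, fell past the stricter threshold, which 0.729% of all genes passed as lower. Ttr, Glul and Oat were named after their values were seen. The hepatocyte sums were thus lower in the livers where Cyp4a14 and Cyp4a31 rose, while the pericentral sums overlapped (10085 to 13562 CPM with water and 7353 to 10868 CPM with NMN), and their part in the liver values was not tested. At 1340 mg/kg/d the hepatocyte sums overlapped (82481 to 114199 CPM with water and 78123 to 110244 CPM with NMN). The 6 proximal tubule markers, from the cells in which Cyp4a enzymes work in the kidney, summed to 0.770 to 3.24 CPM in water livers and 0.894 to 10.3 CPM in NMN livers at 2680 mg/kg/d, against 8787 to 9452 CPM in water kidneys of that schedule. In NMN kidneys of that schedule they summed to 6405 to 8417 CPM, below every water kidney, led by Slc34a1. At 1340 mg/kg/d the sums were 10077 to 12205 CPM in water kidneys and 9215 to 10123 CPM in NMN kidneys, with a small overlap. None of the 6 markers was called by edgeR in either schedule. At an unadjusted p under 0.05, 2 at 1340 and 3 at 2680 mg/kg/d were lower, beside 4.6% and 5.84% of all genes. DESeq2 called 0 and 1 of them lower, beside 0.628% and 0.887% of all genes. Their part in the kidney values of the members was not tested.

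The time of day of each library is not given in the sources used here, and clock genes differed between libraries of 1 group. Arntl and Dbp, clock genes with opposite phases, were chosen after their values were seen. In the liver water libraries at 1340 mg/kg/d Arntl was at 21.3, 3.93, 1.49 and 0.946 CPM and Dbp at 0.633, 94.2, 139.1 and 129.4 CPM, so replicate 1, the library with 6.96 CPM of Cyp4a14, was high in Arntl and low in Dbp. In the NMN libraries Arntl was at 14.4, 14.6, 15.4 and 2.79 CPM and Dbp at 6.09, 4.11, 18.9 and 126.2 CPM. The 3 libraries with high Arntl held 928.6 to 2438 CPM of Cyp4a14, and replicate 4, with low Arntl, lay within that range at 1209 CPM. Without replicate 1 of both groups the fitted log2 changes at 1340 mg/kg/d were 2.73 for Cyp4a10, 4.07 for Cyp4a14 and 2.22 for Cyp4a31. At 2680 mg/kg/d Arntl was at 24.8, 3.29 and 7.35 CPM with water and 33.5, 5.69 and 14.7 CPM with NMN, highest in replicate 1 of each group, where Cyp4a14 was highest among the water libraries and lowest among the NMN libraries. The part of the clock in the members' values was not tested.

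Genes outside the family with the most similar liver profile were sought over the 14 liver libraries, after the mean of each schedule had been taken off. The measure was the root mean square difference of log2 CPM from the mean profile of the 4 members, whose own size was 1.36. Il1r1, the interleukin 1 receptor, was closest of 11596 candidates at 0.62, followed by Inhbb at 0.64, Tmc7 at 0.66, Zbtb16 at 0.74 and Lgals4 at 0.75. Among the members Cyp4a10 lay at 0.25, Cyp4a31 at 0.66, Cyp4a14 at 1.03 and Cyp4a32 at 1.15, so these 5 genes were nearer to the mean profile than Cyp4a14 and Cyp4a32 were. The measure also counts the size of a change. Cyp4a14 was higher with NMN by 4.79 and 3.01 at 1340 and 2680 mg/kg/d, while Cyp4a32 differed by 0.83 and -0.12. Il1r1 was higher with NMN by 1.87 on the log2 scale at 1340 mg/kg/d and by 1.12 at 2680 mg/kg/d. The search used these same libraries, in which the mean profile was higher with NMN, so it favoured genes that rose and nothing is read from that rise. In the kidney the mean profile was nearly flat (size 0.35), and the closest of 13929 candidates were Zfp507 (0.17), Zfp970 (0.18), Zswim4 (0.19), Zbtb37 (0.19) and Zfp2 (0.19).

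The promoters of Cyp4a10, Cyp4a14 and Cyp4a31 were not analysed here. That of Cyp4a32, taken from the RefSeq annotation of GRCm38.p6 as 250 bases before to 50 after the start (chr4:115600688-115600987), was searched on both strands for the direct repeat AGGTCANAGGTCA, the element bound by PPAR-alpha with its partner RXR. No match with up to 2 mismatches was found, where 3.86% of 32851 promoters of the same length held one, and the single unit AGGTCA was also not in this window.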

How the data were processed

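The authors aligned polyA-selected reads with STAR, ran HTSeq-count with strict intersection and no strand, and deposited the resulting counts, which are whole numbers per gene without scaling. Reads aligned to more than 1 place (10.1% to 20.0% per library) were not counted. The build named in the methods could not be matched to an assembly, and symbols, positions and lengths come from GENCODE M21 (53229 gene IDs matched with version, 1180 without, 37 not at all).

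Each organ and schedule was fitted on its own in R 4.3.3 with edgeR 4.0.16 (filterByExpr, TMM, robust quasi-likelihood test) with Benjamini-Hochberg adjustment over all tested genes, and differences between organs or schedules as interactions. Genes passed at an adjusted p under 0.05. The stricter threshold of the 2680 mg/kg/d liver was an adjusted p under 0.01 together with a fold over 2 or under 0.5. Standard errors are the log2 change divided by the root of the F statistic. Permutation tests used log2(CPM + 0.1). DESeq2 1.42.0, other scalings and filters, thinned counts, the replicate block and leaving out libraries were alternatives, of which leaving out replicate 1 of both liver groups and the block per treatment and number were chosen after seeing the data. The scripts were tested on simulated counts.

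Members and gene lists were chosen with earlier results of these data known. The genes named are all Cyp4a genes, Ppara, the 3 genes of each list with the smallest p, the most abundant gene of each marker list, and the 5 genes per organ with the most similar profile, with Ttr, Glul, Oat, Arntl and Dbp named outside it after their values were seen, and some genes that this rule names are not reported here. Liver and kidney libraries of water mice with the same label number deviated together in every pair (correlation 0.166 to 0.464), so the block is given for those comparisons where it changed a call. NMN and water libraries with the same number did so in every pair only in the liver at 2680 mg/kg/d (0.0749 to 0.44). No column of the count files was left unused.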

Additional observations from a re-analysis of the deposited data

Results flagged for a closer look

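Among 24 gene and group combinations of 4 libraries each, 3 had a library far from the others, where chance gives about 1 in 20. Cyp4a14 was at 343.2 CPM in kidney NMN replicate 2 at 1340 mg/kg/d, with the other 3 libraries between 121.6 and 145.3 CPM, and without that library the kidney log2 difference of Cyp4a14 was 0.22 (edgeR adjusted p = 0.989). Cyp4a32 was at 0.267 CPM in kidney water replicate 1 at 1340 mg/kg/d, on 4 counts, with the others between 0.818 and 0.912 CPM. Cyp4a12b was at 84.4 CPM in liver water replicate 1 at 1340 mg/kg/d, above the other 3 libraries, and this is also the library with the lowest Cyp4a14 of its group. The effect of NMN on Cyp4a31 at 2680 mg/kg/d was larger in the liver than in the kidney by 3.97 on the log2 scale, by a test of that difference (edgeR adjusted p = 0.00119). Over the alternatives run, that adjusted p lay between 1.5e-64 and 0.0064, and Cyp4a31 was higher with NMN in 3 of 3 liver libraries than in every water liver.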

How the results depend on the processing

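The log2 change of Cyp4a31 in the liver at 2680 mg/kg/d was above 0 in every alternative, with an edgeR or DESeq2 adjusted p between 1.74e-33 and 0.0291. Cyp4a14 ranged from 1.75e-07 to 0.122, Cyp4a10 from 7.49e-05 to 0.241 and Cyp4a32 from 0.584 to 1. Without the robust option Cyp4a10 and Cyp4a14 gave 0.0273 and 0.00434. The numbers of the labels did not pair NMN with water libraries. With them as a replicate block the adjusted p were 0.179, 0.0872 and 0.0228 for Cyp4a10, Cyp4a14 and Cyp4a31, and for Cyp4a31 in the organ difference, with a block per treatment and number, 0.000121. Dividing by the sequence specific to each gene at 100 bases left the order of the members within each group as it was.

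The number of genes past the threshold depended on the tool. In the liver at 1340 mg/kg/d it was 2, and 74 with DESeq2, 44 without a filter, 16 with the replicate block, 6 with all 14 libraries in the fit, 854 at the unadjusted p, 0 at the stricter threshold, 15 without replicate 1 of both groups and 0 to 18 with 1 library left out. In the liver at 2680 mg/kg/d it was 135, and 424 with DESeq2, 504 without a filter, 557 at the unadjusted p, 883 at an adjusted p under 0.05 and 34 to 259 with 1 library left out. In the kidney at 1340 mg/kg/d it was 18, and 159 with DESeq2, 269 without a filter, 75 with the replicate block, 5 without the robust option, 1338 at the unadjusted p, 2 at the stricter threshold and 5 to 67 with 1 library left out. In the kidney at 2680 mg/kg/d it was 61, and 236 with DESeq2, 514 without a filter, 92 with the replicate block, 35 with all 14 libraries, 1688 at the unadjusted p, 3 at the stricter threshold and 3 to 191 with 1 library left out. For the difference between schedules it was 1 in the kidney (10 with DESeq2, 106 without a filter, 2 with the replicate block) and 10 in the liver (99 with DESeq2, 71 without a filter), and for the organ difference 419 (1232 with DESeq2, 1307 without a filter, 247 with a block per treatment and number). The cause was not tested.

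Signs turned for the following values, of which Cyp4a12a in the kidney at 2680 mg/kg/d was -0.58 in the reported fit. In the liver at 1340 mg/kg/d, leaving out 1 library moved the log2 difference of Cyp4a12b between -0.27 and 0.39, of Cyp4a12a between -0.38 and 0.32 and of Cyb5b between -0.13 and 0.078. Without replicate 1 of both groups they were 0.16, 0.31 and 0.064, and Cyp4a12b was 0.034 with the replicate block. In the liver at 2680 mg/kg/d Cyp4a12b ran from -0.25 to 0.083 and Ppara from -0.16 to 0.64 with 1 library left out, and Cyp4a12b was 0.0095 with thinned counts. The difference of Cyp4a12b between the liver schedules was -0.062 with the replicate block. In the kidney, leaving out 1 library at 1340 mg/kg/d moved Cyp4a10 between -0.027 and 0.27 and Adh1 between -0.24 and 0.0025. At 2680 mg/kg/d it moved Cyp4a10 between -0.17 and 0.069, Cyp4a31 between -0.081 and 0.13 and Cyp4a12a between -0.88 and 0.016. Cyp4a32 in the kidney rested on 3 to 30 counts per library, and its log2 differences there had standard errors of 0.54 and 0.39.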

Other observations

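Of the clock genes read in the kidney, Bhlhe40, a repressor of the clock, rose at 1340 mg/kg/d from 91.9 ± 11.5 to 155.2 ± 30.5 CPM (SD, n = 4, log2 change 0.76, edgeR adjusted p = 0.0393), the only 1 of 18 clock genes past the threshold there, which 0.12% of all genes passed in either direction. At an unadjusted p under 0.05 5 of the 18 were higher and 0 lower, beside 4.34% and 4.6% of all genes. DESeq2 called 1 of the 18 higher, beside 0.605% of all genes. The call was lost without water replicate 2, 3 or 4 (edgeR adjusted p = 0.0731, 0.0917 and 0.102). No clock gene passed in the kidney at 2680 mg/kg/d by edgeR or DESeq2, and 1 of 18 was lower at an unadjusted p under 0.05, beside 5.84% of all genes.

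The remaining marker lists are given for the liver at 2680 mg/kg/d, the comparison in which members rose. Periportal hepatocyte markers summed to 2772 to 3582 CPM with water and 3447 to 4142 CPM with NMN, and 1 of 6 rose and 1 fell, where 3.05% of all genes rose and 4.03% fell. At an unadjusted p under 0.05 3 of the 6 were higher and 2 lower, beside 12.3% of all genes each way. Erythroid markers, led by Alas2, summed to 112.4 to 130.6 CPM with water and 42.1 to 78.7 CPM with NMN, and 1 of 4 fell. For markers of Kupffer cells, endothelial cells, stellate cells and bile duct cells no gene passed by edgeR or DESeq2, and none had an unadjusted p under 0.05. Pancreatic acinar, adipocyte, loop of Henle and collecting duct markers summed to at most 3.5 CPM in any of these livers, and podocyte and adrenal cortex markers to at most 8.36 CPM.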
